A study of Mus musculus with 9 samples.

Results

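Cells labelled by SOM-Cre were set against cells labelled by VIP-Cre, using 6 of the 9 libraries of the series. The 6 are every library that the labels assign to the genotype SOM-Cre;Ai47 (3 libraries) or VIP-Cre;Ai47 (3 libraries), at postnatal day 5. Each library held the RNA of 150 green fluorescent cells picked by hand from dissociated upper layer strips of medial prefrontal and anterior cingulate cortex. Neither line received tamoxifen, and every group carried the Ai47 allele, a Cre-dependent green fluorescent reporter. The 3 remaining libraries, of genotype Nkx2.1-CreER;Ai47 with tamoxifen on embryonic day 17, are in neither group compared here, but took part in the filter on low counts, the scaling and the shared estimate of spread. A Cre driver labels every picked cell that has expressed the driver at any time up to collection, so a library is a mixture of the subtypes that share it. The labels do not say whether the libraries of a line came from different animals. All p-values therefore measure the spread between these libraries, and part or all of it may be technical.

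Somatostatin (SOM) interneurons arise in the medial ganglionic eminence (MGE) of the embryonic forebrain and send much of their inhibition to the dendrites of pyramidal cells. Vasoactive intestinal peptide (VIP) interneurons arise in the caudal ganglionic eminence (CGE), and many of them inhibit other interneurons, SOM cells among them. Both use GABA, and in the first postnatal days both still extend axons and form their first synapses.

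Reads in genes numbered 9184008, 6484488 and 8580921 in SOM libraries 1 to 3, against 8071044, 8896919 and 11439809 in VIP libraries 1 to 3. After thinning to 6484488 reads, 11077 ± 294 genes had a read in SOM libraries and 10309 ± 682 in VIP libraries (SD, n = 3 each). Correlations of log2(CPM + 1) were taken across the 10728 genes tested below, which are not independent replicates. They were 0.667 to 0.715 between SOM libraries, 0.575 to 0.646 between VIP libraries and 0.477 to 0.576 between a SOM and a VIP library. CPM are read counts in genes scaled to a common library total after TMM normalization. Of 23319 gene symbols, 8995 had no read in any of the 9 libraries. These include a run of 461 neighbouring protein-coding genes on the minus strand of chromosome 9 (21294275 to 124476898) and a run of 121 on that of chromosome 19 (27761721 to 60581025). Listed genes inside these runs, among them Cck, Htr3a, Unc13c, Grik4 and Gfra1, had no read in any group. They are counted in the list sizes below but are not among the tested genes.

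The peptide genes of the drivers checked the labels. Sst, which encodes somatostatin (chr16:23889573-23890958 on the minus strand of GRCm38), had 1606, 2179.6 and 1456 CPM in the SOM libraries, against 0.124, 0 and 0 CPM in the VIP libraries. Vip (chr10:5639218-5647617, plus strand) had 0, 0 and 1.27 CPM in the SOM libraries, against 413, 805 and 698 CPM in the VIP libraries. Each peptide was therefore abundant in all 3 libraries of its own line and at or near 0 in the other line, and no library went against its label. The 250 bases before each RefSeq start (GRCm38.p6) are shown because both peptides are textbook targets of cyclic AMP signalling. The cyclic AMP element TGACGTCA is set in capitals, or its first 5 letters where the full element is not found.
Sst promoter, chr16:23890845-23891094, minus strand: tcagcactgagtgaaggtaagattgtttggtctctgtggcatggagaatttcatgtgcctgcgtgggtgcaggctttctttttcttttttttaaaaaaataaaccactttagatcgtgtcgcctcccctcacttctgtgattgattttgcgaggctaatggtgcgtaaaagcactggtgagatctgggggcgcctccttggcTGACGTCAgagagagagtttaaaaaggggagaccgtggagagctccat
Vip promoter, chr10:5638968-5639217, plus strand: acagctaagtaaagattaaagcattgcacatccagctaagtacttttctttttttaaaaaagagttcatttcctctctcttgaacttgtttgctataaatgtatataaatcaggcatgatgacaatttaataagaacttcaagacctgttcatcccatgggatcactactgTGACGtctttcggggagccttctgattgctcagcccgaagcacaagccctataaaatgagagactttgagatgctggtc
The Sst window held 1 full element, 48 to 41 bases before the start. The Vip window held no full element and 1 match to TGACG, 79 to 75 bases before the start. Searched on both strands, the full element was in 1.55% and TGACG in 17.8% of 32851 RefSeq promoters cut to the same 250 bases; the second motif lies inside the first. A match is a run of letters and not a measured site.

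Past an adjusted p of 0.05 in edgeR's quasi-likelihood test, 6 of 10728 tested genes were higher in SOM cells (0.0559%) and 2 were lower (0.0186%), 0.0746% in all. The 6 were Nxph1, Lhx6, Cntnap3, Nxph2, Thbs1 and Gap43, and the 2 were Nfib and Tcf4. In every one of these 8 genes the 3 SOM and the 3 VIP libraries did not overlap. With RNA from pooled cells, fewer cells expressing a gene and less of its RNA per cell cannot be told apart, here or in any result that follows.

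**Figure D1:**
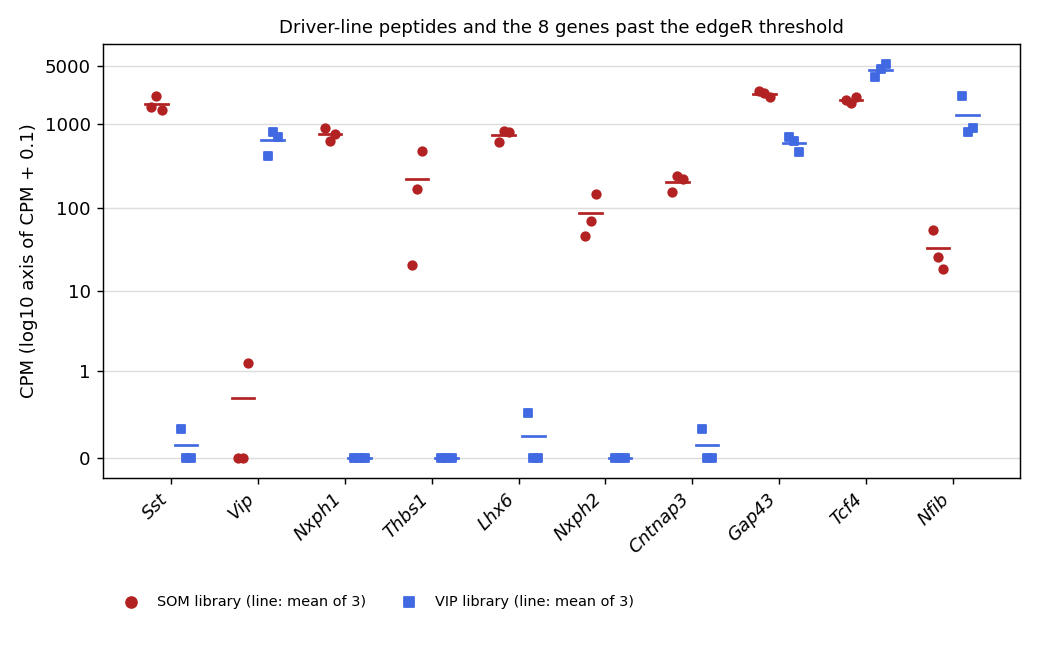
CPM in each library (log10 axis of CPM + 0.1) for Sst, Vip and the 8 genes past the edgeR threshold; red circles are the 3 SOM libraries, blue squares the 3 VIP libraries, in replicate order from left to right, and lines are means of 3. Nxph1, Thbs1 and Nxph2 lie at 0 in all 3 VIP libraries, while Gap43 and Tcf4 are abundant in both lines and differ by a few fold.

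Neurexophilins are secreted ligands of alpha-neurexins, the presynaptic adhesion receptors. Nxph1 (chr6:8948431-9249032, plus strand) had 897, 625 and 750.4 CPM in the SOM libraries and no read in the VIP libraries. That is at least 7669-fold higher in SOM cells, taking 3 reads over the VIP group as the floor, with a fitted log2 fold change of 15.84 ± 0.68 (SE) and an edgeR adjusted p of 9.26e-05. A fitted value depends on edgeR's prior count where a group has no read, and is not a bound. Nxph2 (chr2:23321246-23401973, plus strand) had 45.98, 69.05 and 143 CPM in the SOM libraries and again no read in the VIP libraries, at least 858-fold higher in SOM cells (edgeR adjusted p = 0.0334). Both ligand genes were thus read in all SOM libraries and in no VIP library, although the Nxph2 levels were spread over a wider range within the SOM line.

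Lhx6, the LIM homeobox factor that MGE-derived interneurons need for migration and subtype identity (chr2:36081953-36105408, minus strand), had 608, 822 and 805 CPM in the SOM libraries and 0.247, 0 and 0 CPM in the VIP libraries. The VIP reads numbered 2 in all, and the ratio of pooled reads was 10959 (95% counting interval 3033 to 90497). Its fitted log2 fold change was 13.12 ± 1.03 with an edgeR adjusted p of 0.000685. Counting error is all that such an interval or bound covers, because reads that carry no molecular identifier may be copies of 1 molecule. Cntnap3, a contactin-associated membrane protein of the neurexin superfamily (chr13:64736182-64903955, minus strand), had 154, 237 and 219 CPM in the SOM libraries and 0.124, 0 and 0 CPM in the VIP libraries, where 1 read was found. The pooled ratio was 5942 (95% counting interval 1066 to 234736), the fitted log2 fold change 12.05 ± 1.09 and the edgeR adjusted p 0.00177. Nxph1, Lhx6 and Cntnap3 stayed past the threshold in all 16 alternative settings, including those without each of the 9 libraries in turn.

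Thbs1, which encodes the secreted matrix protein thrombospondin-1 (chr2:118111876-118127133, plus strand), had 20.4, 165 and 474 CPM in the SOM libraries and no read in the VIP libraries. Its SOM levels differed widely, with replicate 1 lowest and replicate 3 highest. SOM cells were at least 2171-fold higher (edgeR adjusted p = 0.0451). Gap43, a growth cone phosphoprotein of extending axons (chr16:42248442-42340651, minus strand), was abundant in both lines, with 2464, 2354 and 2114 CPM in the SOM libraries, against 692, 621 and 465 CPM in the VIP libraries. The mean was 3.90-fold higher in SOM cells, with a log2 fold change of 1.96 ± 0.27 and an edgeR adjusted p of 0.04, and the libraries of each line lay close together.

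The 2 genes lower in SOM cells encode transcription factors. Nfib, a nuclear factor I gene (chr4:82290173-82705750, minus strand), had 53.5, 25.8 and 18.1 CPM in the SOM libraries, against 2165, 795 and 905 CPM in the VIP libraries. The mean was 39.7-fold higher in VIP cells (log2 fold change -5.31 ± 0.60, edgeR adjusted p = 0.0108), and VIP replicate 1 stood above replicates 2 and 3. Tcf4, an E protein that pairs with other basic helix-loop-helix factors (chr18:69343356-69689079, plus strand), had 1969, 1789 and 2093 CPM in the SOM libraries, against 3659, 4595 and 5243 CPM in the VIP libraries. It was abundant in both lines and 2.31-fold higher in VIP cells by the means (log2 fold change -1.21 ± 0.16, edgeR adjusted p = 0.0353).

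The 5 calls other than Nxph1, Lhx6 and Cntnap3 were lost in some settings. Nfib was lost without SOM replicate 2 (edgeR adjusted p = 0.0903) and without SOM replicate 3 (0.0687). Gap43 was kept without Nkx2.1 replicates 1 and 2 and lost without each of the other 7 libraries, at adjusted p of 0.0686 to 0.159. Tcf4 was kept without VIP replicate 1 and without Nkx2.1 replicates 1 and 2, and lost without each of the other 6, at 0.0682 to 0.134. Nxph2 was kept only without Nkx2.1 replicate 2 and lost without each of the other 8, at 0.0526 to 0.0938, and Thbs1 was kept only without SOM replicate 1 and lost without each of the others, at 0.051 to 0.139. Under limma with voom, Nfib was lost at an adjusted p of 0.381, Tcf4 at 0.0564 and Thbs1 at 0.0533.

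More genes passed when the SOM and VIP libraries were fitted alone. The 9-library fit had a common biological coefficient of variation of 1.40 and 6 residual degrees of freedom. The fit of these 6 libraries had 1.14 and 4, its own scaling and its own filter on low counts, and called 14 of 10181 tested genes higher (0.138%) and 18 lower (0.177%) in SOM cells (0.314% in all), 5 of the 8 genes above among them. The 14 were Nxph1, Chodl, Sst, Lhx6, Cntnap3, Sema3a, Cdh9, Gria3, Vat1l, Slc29a1, Lypd6, Mapk10, Cntn1 and Gap43. The 18 were Igsf3, Caln1, Sema5b, Nfib, Dab1, St8sia5, Nfia, Cbln2, Ap1s2, Nr3c2, Grb10, Sall1, Rgs16, Vip, Crh, Prox1, Asic4 and Fbln2. In all 32 the libraries of the lines did not overlap. Nxph2, Thbs1 and Tcf4 were not past the threshold there, at edgeR adjusted p of 0.0809, 0.0944 and 0.0666. DESeq2 called 247 genes higher (2.30%) and 133 lower (1.24%) on the 9 libraries.

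**Figure D2:**
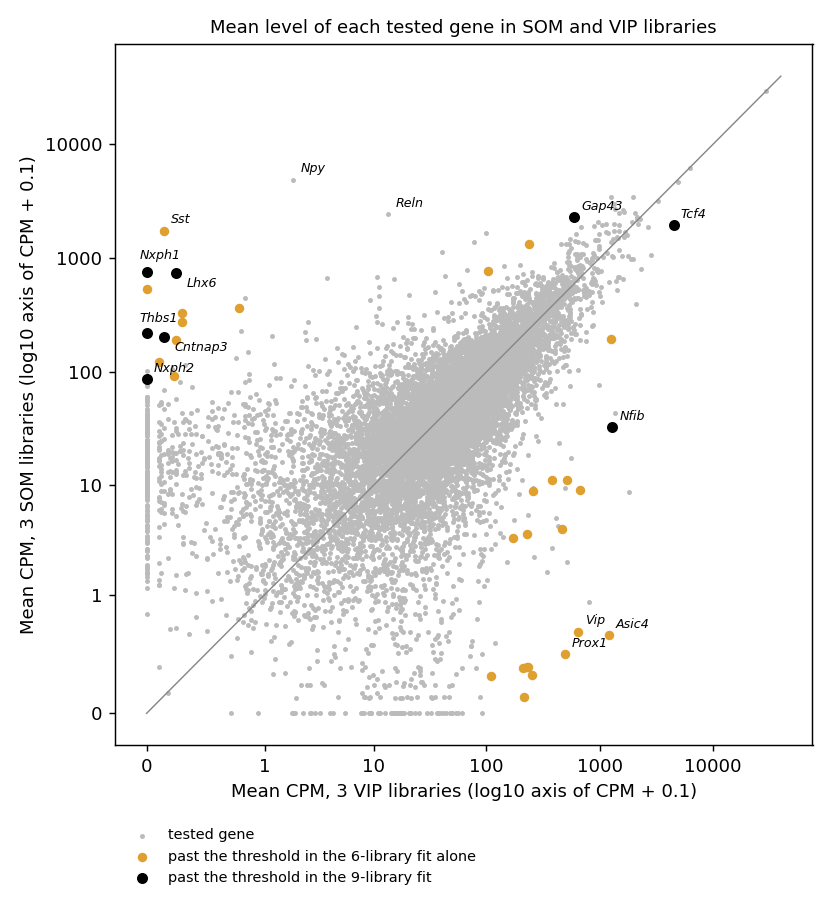
Mean CPM of each of the 10728 tested genes in the 3 SOM libraries (y axis) against the 3 VIP libraries (x axis), both on a log10 axis of CPM + 0.1; the line marks equal means. Black points are the 8 genes past the threshold in the 9-library fit, orange points those past it in the 6-library fit alone, and several genes with large differences, such as Npy and Reln, are in neither.

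Most genes below did not pass the 9-library test and are given by their levels. The libraries of the lines did not overlap in 2130 tested genes (19.9%): every SOM library was above every VIP library in 1164 (10.9%), and every VIP library above every SOM library in 966 (9.0%). Counts of listed genes are set against these shares. The counts are descriptions, since tested genes had to reach the filter on low counts in at least 1 group. The lists were also chosen with earlier results of these data known. The share without overlap rose with the level in the higher line, to 29.8% from 100 CPM and 62.4% from 1000 CPM. Lists of abundant genes thus have a higher share to be set against. The fitted log2 fold changes of all tested genes had a median of -0.0037.

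Transcription factors of the MGE lineage lay above the VIP line in most cases. Of 15 listed, 12 were tested, and in 8 of these every SOM library was above every VIP library, with none the other way. The median log2 fold change was 2.31, and Lhx6 was the only member called. Sox6, an SRY-box factor acting after Lhx6, had 359, 890.3 and 736 CPM in the SOM libraries, against 45.98, 0 and 0 CPM in the VIP libraries (edgeR adjusted p = 0.594). Bcl11a, a zinc finger factor also known as Ctip1, had 664, 781 and 596 CPM in the SOM libraries, against 0.124, 24.8 and 7.43 CPM in the VIP libraries. Both were high in every SOM library, and their VIP levels differed from one library to the next. Satb1, a chromatin organizer of SOM interneuron maturation chosen here after its values were seen, had 455, 350.2 and 619.5 CPM in SOM cells and 102, 123 and 1.32 CPM in VIP cells. Mef2c, an activity-regulated MADS-box factor, was well above 0 in both lines, with 1264, 1245 and 1670.01 CPM in the SOM libraries, against 483, 757 and 689 CPM in the VIP libraries (log2 fold change 1.11 ± 0.26, edgeR adjusted p = 0.296).

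The CGE list went the other way in part. Of 19 listed factors 18 were tested, every VIP library was above every SOM library in 9 and the reverse held in 3, and the median log2 fold change was -1.0. Tcf4, described above, was the only member called. Prox1, the homeobox factor that CGE-derived interneurons use to migrate and mature, had 0, 0 and 0.691 CPM in the SOM libraries, against 371, 411 and 696 CPM in the VIP libraries. Its edgeR adjusted p was 0.0784 with 9 libraries and 0.021 with 6. Nr2e1, the orphan nuclear receptor Tlx, had 0, 0.149 and 0.807 CPM in SOM cells and 85.5, 204 and 69.8 CPM in VIP cells. Prox1 and Nr2e1 were thus close to absent in the SOM line and present in all VIP libraries. Npas1, Sp8 and Nr2f2 (COUP-TFII) are also known as CGE factors and were picked after their values were seen. Npas1 had 121, 48.02 and 54.7 CPM in SOM cells and 491, 548 and 602 CPM in VIP cells. Sp8 had 19.5, 0 and 0 CPM in SOM cells and 43.5, 28.5 and 72.03 CPM in VIP cells. Nr2f2 overlapped between the lines, with 219, 97.8 and 193 CPM in SOM cells and 339, 102 and 110.3 CPM in VIP cells. The CGE factors did not, then, all separate in the same way. Among the listed factors with higher SOM libraries were Sp9, with 19.4, 37.1 and 0.807 CPM in SOM cells and 0, 0 and 0.165 CPM in VIP cells and exons that overlap an opposite-strand gene, and Zbtb20, with 140.4, 222 and 164 CPM in SOM cells and 96.3, 7.08 and 122 CPM in VIP cells.

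**Figure D3:**
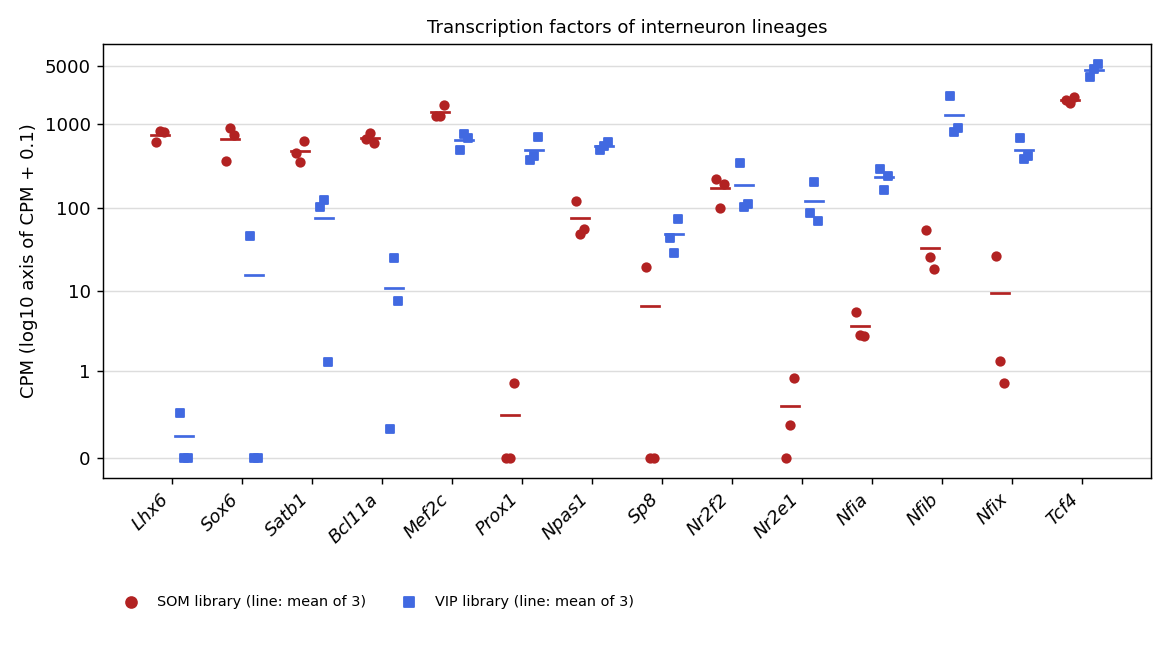
CPM in each library (log10 axis of CPM + 0.1) for 14 transcription factor genes; red circles are the 3 SOM libraries, blue squares the 3 VIP libraries, in replicate order from left to right, and lines are means of 3. Lhx6 and Bcl11a are high in SOM cells, Prox1, Nr2e1, Nfia, Nfib and Nfix are high in VIP cells, and Nr2f2 overlaps between the lines.

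Of the 4 nuclear factor I genes, Nfia, Nfib and Nfix had every VIP library above every SOM library. Nfia had 5.45, 2.83 and 2.77 CPM in the SOM libraries, against 287, 164 and 239 CPM in the VIP libraries, just outside the threshold in the 9-library fit (edgeR adjusted p = 0.0501) and inside it in the 6-library fit (0.021). Nfix had 26.4, 1.34 and 0.691 CPM in the SOM libraries, against 688, 378 and 412 CPM in the VIP libraries (adjusted p = 0.296 by edgeR). Nfic overlapped, with 28.7, 36.8 and 24.9 CPM in SOM cells and 16.3, 45.8 and 33.3 CPM in VIP cells, and was chosen after its values were seen. Of 11 listed nuclear factor I and Sox genes 9 were tested, with Nfib called, 5 above the SOM line in every VIP library, 1 (Sox6) in the reverse order, and a median log2 fold change of -1.39. Sox11, a factor of immature neurons, had 209, 304 and 264 CPM in SOM cells and 774, 886 and 371 CPM in VIP cells.

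Of 30 genes listed for SOM interneurons, among them the driver gene Sst by which the cells were labelled, 21 were tested. Every SOM library was above every VIP library in 13 of these, the reverse held in 2, none was called in the 9-library fit, and the median log2 fold change was 4.17. Sst itself had a pooled ratio of 50929 (95% counting interval 9140.2 to 2011630.0) and an edgeR adjusted p of 0.0534 with 9 libraries and 0.000749 with 6. Npy, which encodes neuropeptide Y, had 3969.8, 7200.1 and 3583 CPM in the SOM libraries, against 0.124, 5.52 and 0 CPM in the VIP libraries (edgeR adjusted p = 0.0582). Chodl, chondrolectin, which marks long-range SOM neurons that make nitric oxide, had 535, 658 and 402 CPM in SOM cells and no read in VIP cells, at least 5184-fold higher (edgeR adjusted p = 0.296 with 9 libraries and 0.00363 with 6). All 3 genes were high in each SOM library, and 1 VIP library held nearly all Npy reads of its line. Reln, the secreted signal reelin, had 2808, 2088 and 2467 CPM in SOM cells and 0.494, 2.29 and 37.7 CPM in VIP cells (edgeR adjusted p = 0.475), with VIP replicate 3 above replicates 1 and 2. Calb1, the calcium buffer calbindin, had 346, 258 and 144 CPM in SOM cells and 0, 21.02 and 0 CPM in VIP cells. The 2 listed genes that lay above in VIP cells were Crh and Calb2, which the list of VIP interneuron genes also holds. Nos1, Crhbp, Lypd6 and Grin3a were listed too and are named after their values were seen. Nos1, the neuronal nitric oxide synthase, had 226, 757 and 403 CPM in SOM cells and 0.371, 32.4 and 0.991 CPM in VIP cells. Crhbp, the binding protein of corticotropin-releasing hormone, had 169.9, 269.9 and 254 CPM in SOM cells and 0, 0 and 1.73 CPM in VIP cells. Lypd6, a modulator of nicotinic receptors, had 484, 354 and 257 CPM in SOM cells and 0, 0.416 and 1.24 CPM in VIP cells (edgeR adjusted p = 0.0253 with 6 libraries).

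Of 30 genes listed for VIP and other CGE interneurons, among them the driver gene Vip by which the cells were labelled, 23 were tested. Every VIP library was above every SOM library in 15, the reverse held in 2, none was called in the 9-library fit, and the median log2 fold change was -4.86, or -3.95 with genes that had no read in a line set at their bound. Vip had a log2 fold change of -10.49 ± 2.40 and an edgeR adjusted p of 0.296 with 9 libraries and 0.0339 with 6. Asic4, of the acid-sensing ion channel family, had 0, 0 and 1.15 CPM in the SOM libraries, against 1319, 1013 and 1274 CPM in the VIP libraries (edgeR adjusted p = 0.0775, and 0.021 with 6 libraries). Fbln2, the matrix protein fibulin-2, had 0, 0 and 0.115 CPM in SOM cells and 416, 70.1 and 165 CPM in VIP cells. Both were near 0 throughout the SOM line. Caln1, a calmodulin-like protein, had 4.38, 7.61 and 14.5 CPM in SOM cells and 342, 183 and 243 CPM in VIP cells (edgeR adjusted p = 0.0397 with 6 libraries). Cxcl14, a chemokine, had 6.52, 0.149 and 0.115 CPM in SOM cells and 156, 275 and 355 CPM in VIP cells. Adarb2, an editing-enzyme homologue used as a CGE marker, and Rasd2, a small GTPase, are named after their values were seen. Adarb2 had 23.7, 0.447 and 2.07 CPM in SOM cells and 1192, 1280.01 and 2993 CPM in VIP cells. Rasd2 had 3.74, 0 and 4.49 CPM in SOM cells and 465, 411 and 266 CPM in VIP cells. Both were read in all VIP libraries and low in the SOM line. Mpped1, a metallophosphoesterase domain gene, lay on the SOM side despite its place on the list, with 979.9, 1023 and 1367 CPM in SOM cells and 1.48, 100.01 and 19.7 CPM in VIP cells. Kctd8, an auxiliary subunit gene of GABA-B receptors, did so too, with 145, 53.5 and 173 CPM in SOM cells and 0.124, 20.4 and 0 CPM in VIP cells.

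**Figure D4:**
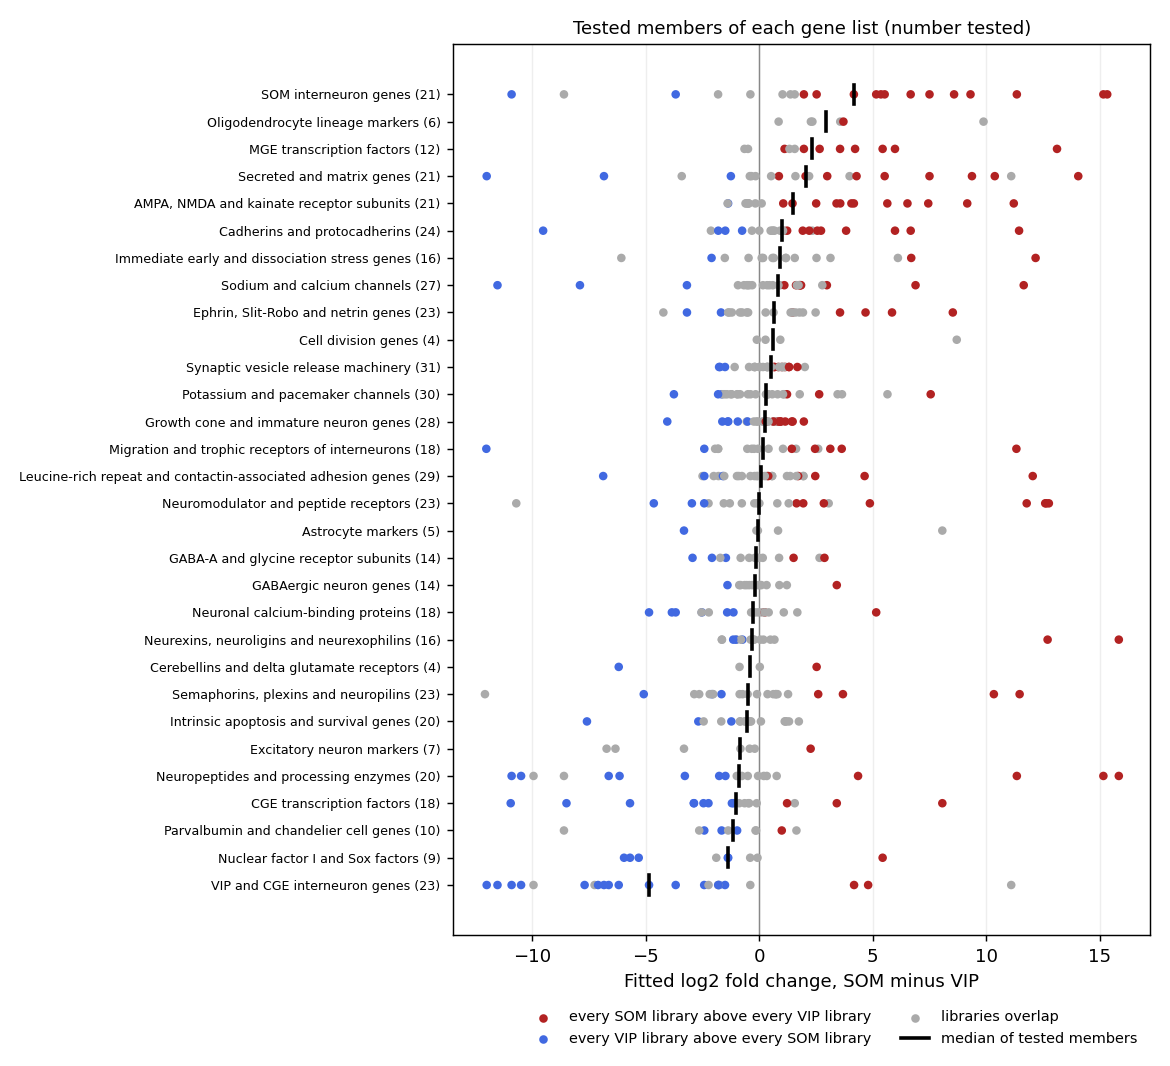
Fitted log2 fold change, SOM minus VIP (x axis), of each tested member of the 30 lists with at least 4 tested members, ordered by median from high to low; red points have every SOM library above every VIP library, blue points the reverse, grey points overlap, and black bars are medians of the tested members. The highest medians are those of the SOM interneuron (4.17), oligodendrocyte lineage (2.95, 6 tested), MGE (2.31), secreted and matrix (2.04) and glutamate receptor (1.46) lists. The VIP interneuron list sits left of 0 at -4.86.

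The genes of GABA synthesis, Gad1 and Gad2, were abundant in both lines. Of 15 listed GABAergic genes 14 were tested, none was called, 1 lay above in every SOM library and 1 in every VIP library, and the median log2 fold change was -0.18. Summed over the list, the levels were 4751, 4159.8 and 4193 CPM in the SOM libraries, against 7405, 6338 and 5973 CPM in the VIP libraries, and every VIP sum was above every SOM sum. Gad1, the main glutamate decarboxylase, had 1010.03, 1226 and 1332 CPM in SOM cells and 1957, 966 and 1511 CPM in VIP cells. Gad2 had 763, 417 and 547 CPM in SOM cells and 474, 277 and 183 CPM in VIP cells. The log2 fold changes of -0.31 ± 0.35 and 0.89 ± 0.46 were within the overlap of the libraries.

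Among neuropeptide and processing genes 20 of 28 were tested, 1 was called (Nxph1, which the list also holds), 4 lay above in every SOM library and 7 in every VIP library, with a median log2 fold change of -0.88. Crh, corticotropin-releasing hormone, had 0, 0 and 0.346 CPM in SOM cells and 70.7, 367 and 319.8 CPM in VIP cells (edgeR adjusted p = 0.0339 with 6 libraries). Tac2, neurokinin B, had 12.1, 0 and 0.922 CPM in SOM cells and 434, 347 and 518 CPM in VIP cells. Calb2, the calcium buffer calretinin, had 182, 38.5 and 9.91 CPM in SOM cells and 1288, 1065 and 605 CPM in VIP cells (edgeR adjusted p = 0.337). Of the 18 tested among 19 calcium-binding proteins none was called, 2 lay above in every SOM library and 6 in every VIP library, with a median of -0.27. Rcn1, an endoplasmic reticulum calcium-binding protein, had 5.45, 7.90 and 0 CPM in SOM cells and 69.8, 66.9 and 56.2 CPM in VIP cells. The calmodulin gene Calm2 was separate by a narrow margin, at 227 ± 22.4 CPM in SOM cells and 192 ± 13.5 CPM in VIP cells (SD, n = 3 each).

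Receptors for modulators and peptides were split. Of 38 listed 23 were tested, none was called, 8 lay above in every SOM library and 3 in every VIP library, with a median log2 fold change of 0.0045. Adora1, the A1 adenosine receptor, had 116, 50.7 and 101 CPM in SOM cells and no read in VIP cells, at least 927-fold higher (edgeR adjusted p = 0.228). Its exons overlap those of Mybph on the other strand over 20.1% of their bases, and reads of these genes cannot be separated where strand was not counted. Chrm2, the M2 muscarinic receptor, had 98.3, 75.8 and 74.2 CPM in SOM cells and no read in VIP cells, at least 832-fold higher (edgeR adjusted p = 0.424). Oxtr, the oxytocin receptor, had 3.32, 145 and 91.7 CPM in SOM cells and no read in VIP cells (adjusted p = 0.424 by edgeR). The 3 receptors were read in all SOM libraries and in no VIP library, with Oxtr low in SOM replicate 1. On the VIP side, Cnr1, the cannabinoid receptor CB1, had 192, 535 and 454 CPM in SOM cells and 1467, 2071 and 2808 CPM in VIP cells (log2 fold change -2.43 ± 0.66, edgeR adjusted p = 0.405). Adra1b, an alpha-1 adrenergic receptor, had 2.67, 1.19 and 9.10 CPM in SOM cells and 82.7, 148 and 95.2 CPM in VIP cells. Chrna4, a nicotinic receptor subunit, had 64.9, 13.7 and 0.576 CPM in SOM cells and 132, 218 and 271 CPM in VIP cells.

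Subunits and partners of ionotropic glutamate receptors, which carry fast excitation, lay on the SOM side as a list. Of 23 listed genes 21 were tested, none was called in the 9-library fit, 12 lay above in every SOM library and 1 in every VIP library, and the median log2 fold change was 1.46. Summed over the list, the levels were 8425, 7886 and 10086 CPM in the SOM libraries, against 1851, 2324 and 2836 CPM in the VIP libraries. The 3 SOM sums were all above the 3 VIP sums.

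The 4 AMPA subunits did not follow 1 pattern. Gria1 had 1672, 1288 and 2028 CPM in SOM cells and 42.2, 24.04 and 233 CPM in VIP cells (log2 fold change 4.06 ± 0.77, edgeR adjusted p = 0.131). Gria3 had 299.5, 142 and 384 CPM in SOM cells and 0, 0.312 and 0 CPM in VIP cells, where 3 reads were found, with a pooled ratio of 2845 (95% counting interval 973 to 13801) (edgeR adjusted p = 0.0534, and 0.021 with 6 libraries). Gria2, whose edited subunit keeps AMPA receptors impermeable to calcium, overlapped between the lines. Gria2 and the subunits named from here to the end of the paragraph other than Grin2a and Grin1 were chosen after their values were seen. It had 296, 483 and 523 CPM in SOM cells and 603, 519 and 700.3 CPM in VIP cells (log2 fold change -0.49 ± 0.40). Gria4 had 427, 569.99 and 634 CPM in SOM cells and 51.4, 187 and 48.5 CPM in VIP cells. The 4 genes thus held 3 with separate lines and 1 with overlap. Among NMDA subunits, Grin2a had 35.7, 12.1 and 125 CPM in SOM cells and 0, 0 and 0.248 CPM in VIP cells. Grin3a, which lowers the calcium permeability of NMDA receptors, had 1577, 1289 and 1322 CPM in SOM cells and 0, 142 and 90.4 CPM in VIP cells. Grin1, the obligatory subunit, was the listed gene that lay above in VIP cells, with 122, 51.5 and 21.9 CPM in SOM cells and 176, 170.4 and 160.2 CPM in VIP cells (log2 fold change -1.37 ± 0.90). NMDA subunits therefore lay on both sides. Grin2b overlapped, at 344 ± 114 CPM in SOM cells and 319 ± 159 CPM in VIP cells (SD, n = 3 each). The kainate subunit genes Grik1, Grik2 and Grik3 were each separate, Grik3 with 208, 299.6 and 169 CPM in SOM cells and 0, 0.312 and 6.94 CPM in VIP cells.

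Of 8 tested partner genes of these receptors, 4 were separate with SOM above (Neto1, Neto2, Cacng3 and Olfm3) and 4 overlapped (Cacng2, Cacng8, Cnih2 and Shisa9). Neto1, an auxiliary subunit of kainate receptors, had 623, 599 and 806 CPM in SOM cells and 0, 0.937 and 10.6 CPM in VIP cells (edgeR adjusted p = 0.403). Cacng3, a TARP auxiliary subunit of AMPA receptors, and the other partners are named after their values were seen. Cacng3 had 497, 626 and 557 CPM in SOM cells and 0, 23.2 and 10.4 CPM in VIP cells. Neto2 had 268, 325 and 127 CPM in SOM cells and 16.8, 33.9 and 17.3 CPM in VIP cells. In each of these 3 genes the lowest SOM library was above the highest VIP library by several fold.

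**Figure D5:**
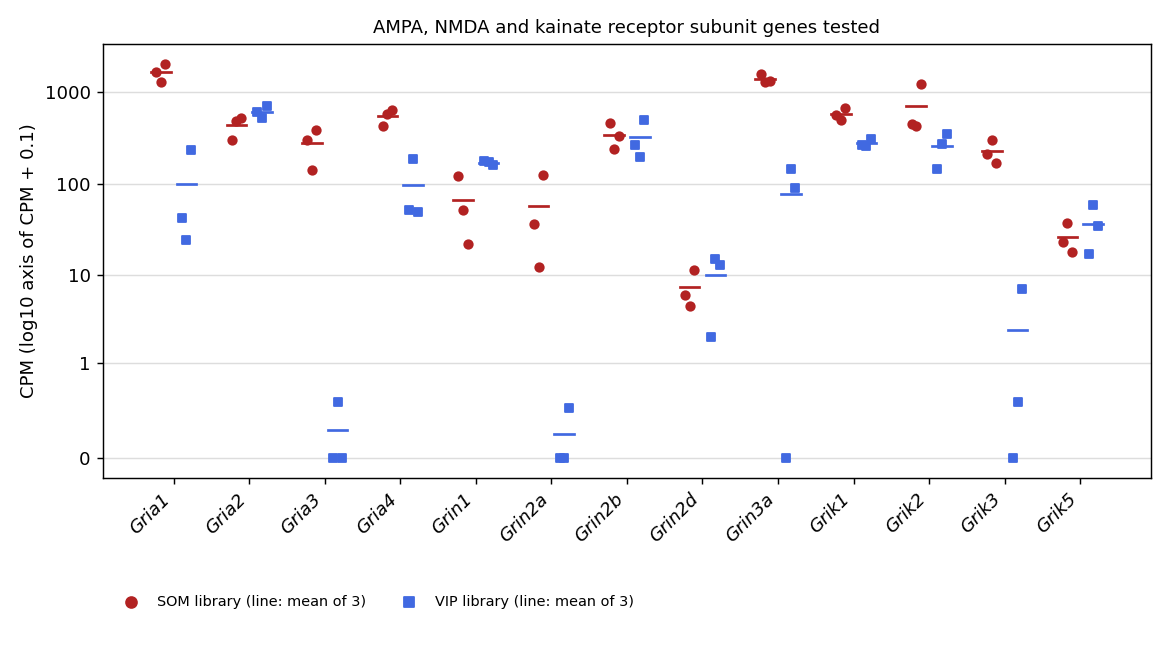
CPM in each library (log10 axis of CPM + 0.1) for the 13 tested AMPA, NMDA and kainate subunit genes; red circles are the 3 SOM libraries, blue squares the 3 VIP libraries, in replicate order from left to right, and lines are means of 3. Gria1, Gria3, Gria4, Grin2a, Grin3a and Grik1 to Grik3 are separate with SOM above, Grin1 with VIP above, and the others overlap.

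GABA-A and glycine receptor subunits had a few members separate in either direction. The shares over all tested genes were 10.9% with SOM above and 9.0% with VIP above. Of 15 listed 14 were tested, none was called, 2 lay above in every SOM library and 3 in every VIP library, and the median log2 fold change was -0.15. Gabrb1 had 152, 111 and 146 CPM in SOM cells and 19.04, 32.9 and 3.96 CPM in VIP cells. Gabrg1 had 201, 119 and 170.3 CPM in SOM cells and 0, 94.6 and 77.3 CPM in VIP cells. Both beta-1 and gamma-1 subunit genes were on the SOM side. Gabrb2 had 55.8, 63.8 and 97.8 CPM in SOM cells and 395, 171 and 356 CPM in VIP cells. Gabrg3 was also separate with VIP above. The lowest edgeR adjusted p of these named subunit genes was 0.929, for Gabrb2.

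Among synaptic organizers, 16 of 19 listed neurexin, neuroligin and neurexophilin genes were tested. Nxph1 and Nxph2 were called, 2 lay above in every SOM library and 3 in every VIP library, and the median log2 fold change was -0.32. The neurexin gene Nrxn2 was separate with VIP above and had 73.8, 78.4 and 85.5 CPM in SOM cells and 169, 120.4 and 109 CPM in VIP cells. Clstn3, the postsynaptic organizer calsyntenin-3, had 451, 737 and 702 CPM in SOM cells and 1341, 1902 and 944 CPM in VIP cells. Lrrtm1, a leucine-rich repeat ligand of neurexins, was separate by a small margin with VIP above. Of 10 listed cerebellin and delta receptor genes 4 were tested, none was called and the median was -0.42. Cbln2, a secreted bridge between neurexins and delta receptors, had 4.28, 9.99 and 13.02 CPM in SOM cells and 385, 1024 and 586 CPM in VIP cells (edgeR adjusted p = 0.0659, and 0.0185 with 6 libraries). Its relative Cbln4 had 45.02, 14.02 and 13.7 CPM in SOM cells and 0, 12.6 and 0 CPM in VIP cells, so the 2 cerebellins lay on opposite sides.

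Of 32 listed leucine-rich repeat and contactin-associated adhesion genes 29 were tested, Cntnap3 was called, 5 lay above in every SOM library and 3 in every VIP library, and the median log2 fold change was 0.09. Cntn1, the adhesion protein contactin-1, had 1021, 1569.6 and 1394 CPM in SOM cells and 306, 177 and 238 CPM in VIP cells (edgeR adjusted p = 0.505, and 0.0295 with 6 libraries). Cntnap5a had 106, 15.2 and 166 CPM in SOM cells and 0, 6.76 and 4.71 CPM in VIP cells. The 3 genes with VIP above, Lrfn1, Lrrc4c and Lrrc4b, all encode leucine-rich repeat proteins of excitatory synapses. Lrfn1 had 0, 0.597 and 0.346 CPM in SOM cells and 43.8, 53.7 and 16.5 CPM in VIP cells. Lrrc4c had 41.2, 4.77 and 31.3 CPM in SOM cells and 176, 127 and 111 CPM in VIP cells, and Lrrc4b was separate in the same direction.

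Cadherins and protocadherins, homophilic adhesion proteins, leaned to SOM cells: of 27 listed 24 were tested, none was called, 9 lay above in every SOM library and 4 in every VIP library, with a median log2 fold change of 0.98. Cdh9 had 81.9, 118 and 166 CPM in SOM cells and 0, 0 and 0.0826 CPM in VIP cells, where 1 read was found, for a pooled ratio of 3607 (95% counting interval 647 to 142498) (edgeR adjusted p = 0.225, and 0.0218 with 6 libraries). Cdh18 had 44.4, 14.9 and 41.9 CPM in SOM cells and 0.865, 0.104 and 0 CPM in VIP cells. The X-linked Pcdh11x had 32.7, 256 and 294 CPM in SOM cells and 0.124, 0.104 and 8.92 CPM in VIP cells. Pcdh8, Pcdh10 and Cdh2, which encodes N-cadherin, were separate with VIP above. Pcdh10 had 259, 154 and 68.9 CPM in SOM cells and 539, 481 and 341 CPM in VIP cells.

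Guidance genes had members separate in either direction, set against 10.9% of all tested genes with SOM above and 9.0% with VIP above. Of 26 listed semaphorin, plexin and neuropilin genes 23 were tested, none was called, 4 lay above in every SOM library and 3 in every VIP library, and the median log2 fold change was -0.51. Sema3a, a secreted repellent, had 279, 296 and 410.2 CPM in SOM cells and 0, 0.312 and 0 CPM in VIP cells, with 3 reads in VIP cells and a pooled ratio of 3276 (95% counting interval 1120.4 to 15887) (edgeR adjusted p = 0.103, and 0.0161 with 6 libraries). The membrane-bound Sema5b ran the other way, with 9.62, 15.7 and 8.18 CPM in SOM cells and 667, 253 and 219 CPM in VIP cells (edgeR adjusted p = 0.0659, and 0.03 with 6 libraries). Each was high in all 3 libraries of its line. Plxna2, a plexin receptor, had 315, 392 and 851 CPM in SOM cells and 17.3, 176 and 64.4 CPM in VIP cells. Sema4a and Sema3e were also separate with SOM above, and Sema4c and Sema4g with VIP above. Of 28 ephrin, Slit-Robo and netrin genes 23 were tested, none was called, 5 lay above in every SOM library and 2 in every VIP library, and the median was 0.63. Efna5, ephrin-A5, had 85.6, 169 and 115 CPM in SOM cells and 0, 14.4 and 0 CPM in VIP cells. Ntn1, netrin-1, and the receptor gene Ephb3 were separate at lower levels with SOM above. The netrin receptor gene Unc5c had 0.962, 0.597 and 17.6 CPM in SOM cells and 57.2, 38.5 and 79.3 CPM in VIP cells, and the ephrin gene Efna3 was separate in the same direction.

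Genes of migration and trophic support included genes with reads in 1 line and none in the other. Of 29 listed 18 were tested, none was called, 5 lay above in every SOM library and 2 in every VIP library, and the median log2 fold change was 0.17. Ret, the signalling receptor for glial cell line-derived neurotrophic factor ligands, had no read in SOM cells and 71.1, 69.3 and 21.1 CPM in VIP cells, at least 414-fold higher in VIP cells (edgeR adjusted p = 0.405). Its ligand-binding partner Gfra2 had 219.8, 87.4 and 179 CPM in SOM cells and 0, 5.41 and 33.7 CPM in VIP cells. Erbb4, the neuregulin receptor of migrating interneurons, had 75.4, 85.9 and 142 CPM in SOM cells and 366, 216 and 1043 CPM in VIP cells (log2 fold change -2.42 ± 0.57, edgeR adjusted p = 0.296). These receptors differed in direction, with Ret and Erbb4 on the VIP side. Kitl, the ligand of the receptor Kit, had 52.9, 6.11 and 40.6 CPM in SOM cells and no read in VIP cells. Ptn, the growth factor pleiotrophin, had 168, 298 and 232 CPM in SOM cells and 54.9, 24.1 and 0.661 CPM in VIP cells. Both secreted factors were on the SOM side. Dcx, doublecortin, a microtubule protein of migrating neurons, had 1983, 1423 and 2201 CPM in SOM cells and 625, 639 and 812 CPM in VIP cells (log2 fold change 1.43 ± 0.23, edgeR adjusted p = 0.0611).

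All 28 growth cone and immature neuron genes were tested; Gap43 was called, 10 lay above in every SOM library and 6 in every VIP library, with a median log2 fold change of 0.26. Stmn2, the microtubule regulator stathmin-2, had 3899, 3292 and 3249.7 CPM in SOM cells and 984, 1197 and 1587 CPM in VIP cells (log2 fold change 1.47 ± 0.25, edgeR adjusted p = 0.0784). Gap43, Dcx and Stmn2 all had SOM libraries above VIP libraries and small spread within a line. Marcksl1, an actin-linked membrane protein, had 89.6, 57.7 and 28.8 CPM in SOM cells and 213, 167 and 164 CPM in VIP cells, and Igfbpl1 was separate at lower levels with VIP above. Map1b, a microtubule protein of growing axons, overlapped at 4688 ± 186 CPM in SOM cells and 4895 ± 536 CPM in VIP cells (SD, n = 3 each).

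Of 28 secreted and matrix genes 21 were tested, Thbs1 was called, 9 lay above in every SOM library and 3 in every VIP library, and the median log2 fold change was 2.04. Col25a1, a membrane-bound collagen, had 198, 796 and 336 CPM in SOM cells and 0, 0 and 1.90 CPM in VIP cells (edgeR adjusted p = 0.373). Lama4, a laminin chain, had 33.8, 0.149 and 17.5 CPM in SOM cells and no read in VIP cells, with SOM replicate 2 close to 0. Ptprz1, a phosphatase and proteoglycan receptor, had 378, 127 and 235 CPM in SOM cells and 529, 445 and 787 CPM in VIP cells. Reln and Fbln2, given above, are also members.

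Sodium and calcium channel genes numbered 28, of which 27 were tested; none was called, 9 lay above in every SOM library and 3 in every VIP library, and the median log2 fold change was 0.85. Of the auxiliary alpha2delta subunit genes, Cacna2d1 and Cacna2d2 stood on opposite sides. Cacna2d2 had 48.02, 18.05 and 58.5 CPM in SOM cells and no read in VIP cells, and Cacna2d1 had 0.642, 0 and 0.230 CPM in SOM cells and 24.7, 7.39 and 189 CPM in VIP cells. Cacna2d2 was at least 433-fold higher in SOM cells (edgeR adjusted p = 0.429). Asic1 had 75.1, 68.2 and 12.6 CPM in SOM cells and 603, 439.9 and 376 CPM in VIP cells, in the same direction as Asic4. Cacnb3, a beta subunit of calcium channels, had 206, 129.9 and 329 CPM in SOM cells and 12.98, 73.9 and 98.6 CPM in VIP cells, and the sodium channel gene Scn9a was separate at lower levels with SOM above. Of 33 potassium and pacemaker channels 30 were tested, none was called, 3 lay above in every SOM library and 3 in every VIP library, with a median of 0.31. Kcnd2, which carries A-type current, had 428, 422 and 383 CPM in SOM cells and 6.55, 51.4 and 139.8 CPM in VIP cells. Its level was above in every SOM library. Kcnc1, the fast-spiking channel Kv3.1, had 20.1, 22.4 and 104 CPM in SOM cells and 177, 142 and 143 CPM in VIP cells. Kcnt2, a sodium-activated potassium channel, had 6.74, 34.7 and 61.1 CPM in SOM cells and 101, 127 and 131 CPM in VIP cells.

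Of 39 genes of vesicle release 31 were tested, none was called, 9 lay above in every SOM library and 3 in every VIP library, and the median log2 fold change was 0.52. Rims2, a scaffold of the active zone, had 313, 214 and 317 CPM in SOM cells and 77.4, 89.6 and 96.6 CPM in VIP cells. Pclo, another active zone scaffold, had 372, 631 and 473 CPM in SOM cells and 149, 118 and 327 CPM in VIP cells, and the vesicle protein gene Sv2c was separate at lower levels with SOM above. The 3 genes with VIP above belong to the vesicle and its fusion machinery. Cplx2, the SNARE regulator complexin-2, had 394, 235 and 128 CPM in SOM cells and 981, 793 and 806 CPM in VIP cells. The vesicle SNARE gene Vamp2 had 491, 153 and 139.99 CPM in SOM cells and 1009, 1004 and 592 CPM in VIP cells. Synpr, synaptoporin, had 360.5, 1105 and 965 CPM in SOM cells and 2414, 1981 and 2519 CPM in VIP cells. The edgeR adjusted p was 0.424 for Cplx2, 0.46 for Vamp2 and 0.9996 for Synpr.

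Interneuron death by intrinsic apoptosis takes place in the first postnatal weeks. Of 22 listed apoptosis and survival genes 20 were tested, none was called, none lay above in every SOM library, 3 lay above in every VIP library, and the median log2 fold change was -0.54. Bcl2l11, which encodes the death activator Bim, had 0, 0.597 and 0 CPM in SOM cells and 48.8, 53.5 and 14.5 CPM in VIP cells. Bbc3, which encodes Puma, had 3.32, 2.54 and 4.95 CPM in SOM cells and 20.02, 29.3 and 20.3 CPM in VIP cells. Of 21 immediate early and dissociation stress genes 16 were tested, none was called, 2 lay above in every SOM library and 1 in every VIP library, and the median was 0.90. Fos overlapped, with 330.01, 359 and 63.8 CPM in SOM cells and 138, 29.2 and 335 CPM in VIP cells, and varied several fold within each line. Arc and Fosb were separate with SOM above, although Arc was close to 0 in SOM replicate 3, and Jund with VIP above.

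Outside the lists, genes were named that had an unadjusted p under 0.05, no overlap and at least 100 CPM in each library of the higher line. At that unadjusted p, 497 genes were higher in SOM cells (4.63%) and 253 lower (2.36%), 6.99% in all. On the SOM side, Vat1l had 179.5, 197 and 194 CPM in SOM cells and 0.247, 0 and 0 CPM in VIP cells and passed with 6 libraries at an edgeR adjusted p of 0.0218. The receptor phosphatase gene Ptprm had 232, 274 and 324 CPM in SOM cells and 7.54, 0.104 and 0 CPM in VIP cells. Its relative Ptprt had 153, 167 and 256 CPM in SOM cells and 3.83, 3.23 and 0.248 CPM in VIP cells. All 3 were under 10 CPM in every VIP library. Adcy1, a calcium-activated adenylyl cyclase, had 651, 555 and 880.3 CPM in SOM cells and 5.56, 89.6 and 34.9 CPM in VIP cells (edgeR adjusted p = 0.228). Tshz3, a zinc finger factor gene, had 431, 229 and 434 CPM in SOM cells and 0.247, 3.54 and 29.6 CPM in VIP cells. Osbpl5, Dbpht2 and AI504432 were the others, with fitted log2 fold changes of 4.70, 4.50 and 8.01.

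On the VIP side, Ap1s2, an adaptor subunit of vesicle sorting, had 3.21, 3.73 and 5.30 CPM in SOM cells and 523, 381 and 486 CPM in VIP cells (edgeR adjusted p = 0.297, and 0.00249 with 6 libraries). Sall1, a zinc finger factor, had 0, 0 and 0.461 CPM in SOM cells and 344, 135 and 208 CPM in VIP cells. Wnt5a, a secreted Wnt ligand, had 0.214, 0 and 4.72 CPM in SOM cells and 486, 231 and 305 CPM in VIP cells. These genes were near 0 in all SOM libraries. Sorcs3, a sortilin-family receptor, had 5.13, 0 and 0.922 CPM in SOM cells and 575, 528 and 432 CPM in VIP cells. Gpd1, a glycerol phosphate dehydrogenase, had 0, 0 and 2.53 CPM in SOM cells and 619.8, 892 and 883 CPM in VIP cells. Rgs16, a regulator of G protein signalling, had 0, 0 and 0.461 CPM in SOM cells and 113, 322 and 259 CPM in VIP cells. Grb10, an adaptor of insulin receptor signalling, and Cpne7, a copine, were the others, with log2 fold changes of -10.28 and -6.81.

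Reelin and its intracellular adaptor lay on opposite sides. Dab1, which relays the reelin signal in the receiving cell, was called with 6 libraries and chosen for description after its values were seen. It had 5.24, 8.50 and 19.4 CPM in the SOM libraries, against 541, 351 and 650.2 CPM in the VIP libraries (edgeR adjusted p = 0.0784 with 9 libraries). The SOM libraries, high in Reln, were thus low in Dab1, and the VIP libraries the reverse.

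Markers of other cells were low in most libraries but not alike. Summed excitatory neuron markers came to 120 to 196 CPM in SOM libraries and 85.7 to 211 CPM in VIP libraries. Summed astrocyte markers came to 64.4 to 221 CPM in SOM libraries and 264 to 477 CPM in VIP libraries. Slc1a2, a glutamate transporter gene, had 5.24, 53.4 and 23.9 CPM in SOM libraries and 375, 216 and 231 CPM in VIP libraries. The tested astrocyte markers Aldh1l1 and Aldoc went the other way, with DESeq2 log2 fold changes of 8.23 and 0.76. Summed oligodendrocyte lineage markers came to 142 to 342 CPM in SOM libraries and 1.85 to 129 CPM in VIP libraries. The sums for microglia were 30.9 to 143 CPM in SOM and 84.7 to 105 CPM in VIP libraries, for endothelial and mural cells 0 to 17.7 CPM in SOM and 0 to 0.52 CPM in VIP libraries, for erythrocytes 0 CPM in SOM and 0.104 to 7.35 CPM in VIP libraries, and for cell division 32.6 to 98.5 CPM in SOM and 17.5 to 174 CPM in VIP libraries. Among tested members, the number separate with SOM or VIP above was 1 or 0 of 7 for excitatory neurons, 0 or 1 of 5 for astrocytes, 1 or 0 of 6 for the oligodendrocyte lineage, and 0 in either direction for the 2 microglial and 4 cell division genes. None of these was called. Their median log2 fold changes were -0.83, -0.06, 2.95, 0.08 and 0.60. The endothelial and erythrocyte lists had no tested member. The astrocyte and oligodendrocyte sums differed between the lines without overlap, and their part in the differences above was not tested. Of 15 genes listed for parvalbumin and chandelier cells, the other MGE-derived interneurons, 10 were tested, none was called, 1 lay above in every SOM library and 3 in every VIP library (Erbb4, Kcnc1 and Fgf13), and the median was -1.17. Pvalb itself had no read in any of the 6 libraries, all of postnatal day 5. Whether the libraries held cells that express it later was not tested.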

How the data were processed

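For each library the authors deposited a table of raw read counts by gene symbol. The submitters' processing notes name TopHat2 2.0.9, DESeq2 and the build mm10. How reads were counted, and with which strand setting, is not given in the sources used. Each table also held 5 summary entries that name no gene, 83.6% to 85.2% of its total, which were left out. Groups came from the labels. In R 4.3.3, edgeR 4.0.16 fitted all 9 libraries with the line as the only term, TMM scaling and filterByExpr at a minimum count of 10, and SOM was tested against VIP by the quasi-likelihood test with Benjamini-Hochberg adjustment over 10728 genes. The standard error is the log2 fold change over the square root of F. The floor for a bound was 3 reads over the pooled libraries of a group. In 1 library alone, 3 reads would be 0.248 to 0.447 CPM. DESeq2 1.42.0 and limma 3.58.1 served as alternatives. On simulated data with a low dispersion all 3 fits recovered the known differences. With a high dispersion edgeR and limma made no calls, and many of DESeq2's calls were of unchanged genes. In both simulations every gene had the same dispersion, which was below the common dispersion of the 9-library fit. On the data, edgeR and limma did make calls. The simulation therefore cannot say how many of DESeq2's calls on the data were of unchanged genes.

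The members and the 33 gene lists were chosen with earlier results of these data known. Named genes were Sst, Vip, Gad1 and Gad2; called genes without overlap and with at least 10 CPM in the higher line; in each list other than those of other cell types the called members, up to 3 per direction without overlap by fitted fold, and the member with the highest mean; and outside the lists, 8 per direction at an unadjusted p under 0.05, without overlap and with at least 100 CPM in each library of the higher line. Others are marked as chosen after their values were seen. Several genes that the rule names are not reported here. Coordinates are from GENCODE M21 (GRCm38), and promoters from RefSeq (GRCm38.p6), where both peptide genes matched.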

Additional observations from a re-analysis of the deposited data

How the results depend on the processing

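Against 6 genes higher and 2 lower in SOM cells, the counts were 247 and 133 by DESeq2's Wald test, 48 and 27 by limma with voom, 14 and 7 with no filter on low counts, 14 and 18 with the SOM and VIP libraries alone, and 3 and 1 with the replicate number as a block. DESeq2's size factors in edgeR gave 6 and 3, and a minimum count of 50 gave 7 and 3. Leaving out each library in turn gave 3 to 9 genes higher and 0 to 8 lower: dropping SOM replicate 2 or 3 left 3 and 0, dropping VIP replicate 2 or 3 left 5 and 1, and dropping Nkx2.1 replicates 1, 2 and 3 left 5 and 5, 9 and 8, and 3 and 1. The cause was not tested. SOM and VIP samples with the same number correlated little in their deviations from the group means (0.064, 0.042 and 0.0079). Those with different numbers had -0.065 to 0.031, below 2 of these 3 values. Deviations cancel within a group, so the values for same and different numbers are not independent of each other. All were small, and the numbers were not taken to pair the samples. With the block, Gap43 had an edgeR adjusted p of 0.0948, Tcf4 of 0.0791, and Nxph2 and Thbs1 of 0.133 each. The median of all tested genes shifted to a log2 fold change of 0.22 under voom, 0.13 under the block, and 0.13 and 0.14 without VIP replicates 2 and 3.

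Over the 131 named genes and 16 alternatives, 1 gene, which overlapped between the lines, changed sign. Map1b, at -0.06, had 0.0049 under voom and -0.15 to 0.016 with single libraries left out. No other named gene changed direction.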

Other observations

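Reads that were abundant in a library and absent from another of the same line were rare in SOM cells. Of 3541 tested genes with at least 100 CPM in a SOM library, 20 (0.565%) had no read in another SOM library. The same held for 129 of 4028 genes (3.20%) in VIP libraries and 846 of 4890 (17.3%) in Nkx2.1 libraries.

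In 6 genes (Asic4, Gpd1, Prox1, Rgs16, Sall1 and Vip) every VIP library had at least 100 CPM while at least 2 SOM libraries had no read. The rule leaves reads in at most 1 SOM library, and in all 6 genes that library was replicate 3, at up to 2.53 CPM. In the reverse direction 16 genes met the same rule, of which 5 had reads in VIP replicate 1, 6 in VIP replicate 2 and 3 in VIP replicate 3.

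The share of tested genes whose libraries did not overlap depended on the level in the higher line. It was 12.8% under 10 CPM, 15.8% from 10 CPM, 29.8% from 100 CPM and 62.4% (63 of 101 genes) from 1000 CPM. Among the 101 most abundant genes every SOM library was above every VIP library in 45, and the reverse held in 18.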
